A study of Mus musculus with 6 samples.

Results

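Cytochrome c oxidase, or complex IV of the respiratory chain, was examined at the level of the mRNAs of its nuclear-encoded subunits, their tissue isoforms and its assembly proteins. The genes were chosen by name from a count table of brown adipose tissue (BAT). They are those whose symbol starts with Cox and a digit, together with Sco1, Sco2 and Surf1, and that had at least 10 counts summed over all libraries. Of 35976 genes listed, 30 matched these names and 28 had enough counts. The other two, Cox7b2 and Cox8c, had 0 counts in every library. By role, 10 of the 28 genes encode the form of a subunit that most tissues use, 5 encode a tissue isoform and 13 act in assembly. The study asked what the BAT of mice without soluble ST2 (sST2), a secreted form of the IL-33 receptor, expresses in the cold when the tissue has lost its sympathetic nerves. RNA was taken from 3 sST2-KO mice and 3 WT littermates on a C57BL/6J background. In the sST2-KO allele of Il1rl1 the intron that follows exon 8 is deleted in the germline, which removes the end of the sST2 reading frame, so the deletion is present in all tissues and not in BAT alone. All 6 mice, WT included, were 10 weeks old, had undergone BAT denervation, were kept at 30 °C for 7 days and were then held at 10 °C for 8 h.

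Complex IV takes electrons from cytochrome c and passes them to oxygen while it pumps protons across the inner mitochondrial membrane. Its catalytic core is encoded by mitochondrial DNA and carries heme A and copper, which dedicated proteins synthesize and deliver, and a shell of small nuclear-encoded subunits surrounds that core. Several shell subunits exist in isoforms. Heart and skeletal muscle use Cox6a2, Cox7a1 and Cox8b, and brown fat is known for high Cox7a1 and Cox8b, whereas most tissues use Cox6a1, Cox7a2 and Cox8a.

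The libraries held 8159442 to 12874809 counts, and levels are given as normalized CPM, which is the count relative to the library size after TMM scaling. Values by mouse follow the order of the replicates, 1 to 3, in each group. For the targeted gene Il1rl1 the WT libraries held 19, 19 and 6 counts, and those of sST2-KO mice 55, 69 and 142. These counts add the reads of sST2 and of the membrane receptor, so they do not check the genotype. Brown adipocyte markers were present in every library, with a sum over 12 genes of 8148 to 15124 CPM in WT mice and 352 to 1803 CPM in sST2-KO mice. Skeletal muscle mRNAs differed widely, from 118 to 1609 CPM over 18 genes in WT mice, where replicate 1 was the highest, and from 4355 to 17952 CPM in sST2-KO mice. WT replicate 2 stood apart by liver mRNAs, with 3192 CPM of Alb against at most 23.7 CPM elsewhere. In sST2-KO replicate 3 the mitochondrial genome gave 6.80% of the counts, against 11.8% to 16.6% in the other libraries.

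Most mRNAs of the complex IV subunits were lower in sST2-KO BAT, and no member of the group was called higher. Of the 28 genes, 27 passed the filter on low counts, and 25 of these had a fitted log2 fold change below 0, with a median of -1.53 against 0.034 for all 14542 genes tested. Adjusted p values come from the quasi-likelihood test of edgeR. With a limit of 0.05, 16 of the 27 were lower and 0 were higher, where 9.1% of all genes were called lower and 10.5% higher. At an unadjusted p under 0.05 the same test reached 21 of the 27 members, and 5269 of all 14542 genes tested. In 21 of the 27 genes the sST2-KO values lay apart from the WT values without overlap, a pattern found in 41.5% of all genes tested. By role, the median log2 fold change was -1.73 for the ubiquitous subunits, -1.604 for the tissue isoforms and -0.70 for the assembly genes, a description for which no test was made. RNA was taken from whole tissue, so fewer brown adipocytes and less of these mRNAs in each adipocyte cannot be told apart.

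**Figure D1:**
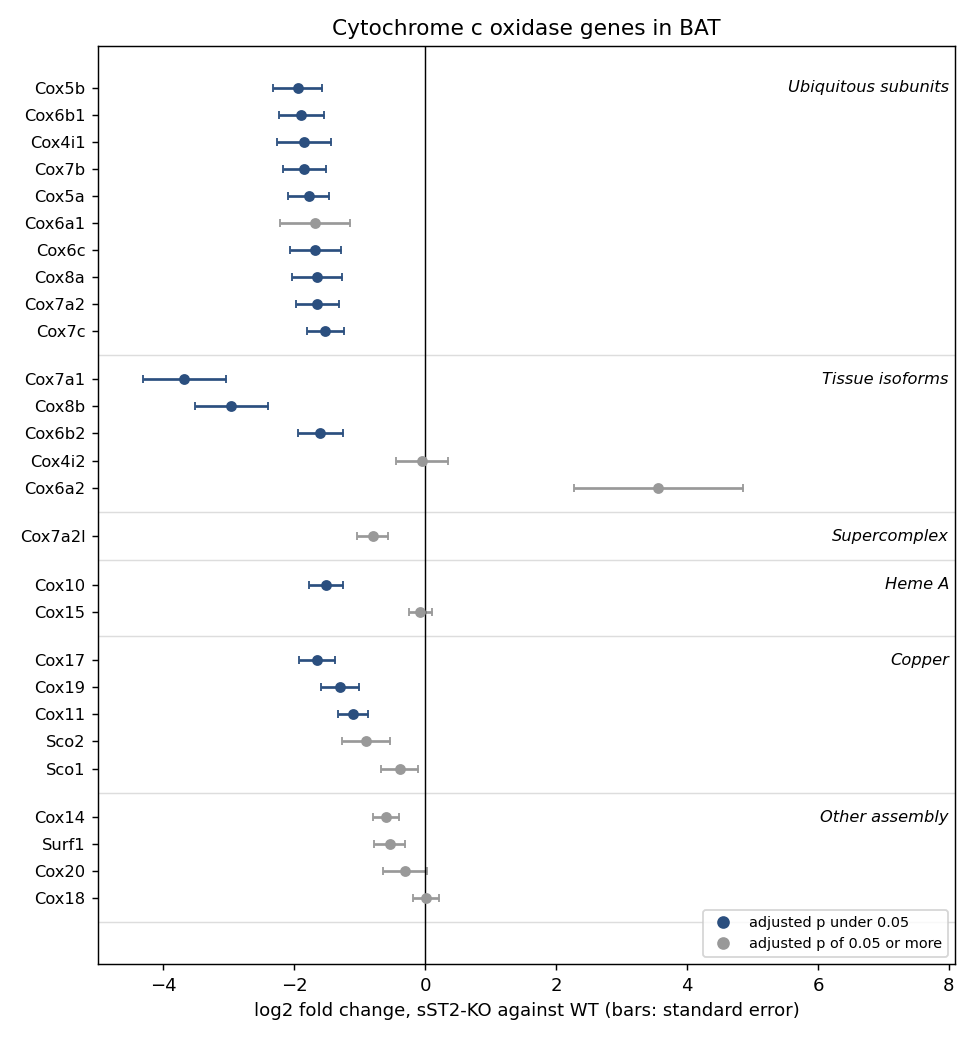
Fitted log2 fold changes of sST2-KO against WT for the 27 members tested, grouped by role, with bars of 1 standard error and dark points for an adjusted p under 0.05 (edgeR, 3 libraries per group). The subunit genes lie between -3.68 and -1.53 except for Cox4i2 (-0.046) and Cox6a2 (3.56), while the assembly genes spread from -1.66 to 0.010.

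All 10 ubiquitous subunits had lower fitted levels, by similar amounts, and 9 of them were called lower. Cox4i1, on chromosome 8 from 121391505 to 121400950 of GRCm39, encodes the large regulatory subunit 4 and had the highest level per kilobase of transcript among the 28 genes in WT mice, at 2704 CPM per kb. Its level was 1402, 2050 and 2898 CPM in WT mice and 720, 691 and 348 CPM in sST2-KO mice. Every sST2-KO mouse was below every WT mouse, and the log2 fold change was -1.85 (standard error 0.41, edgeR adjusted p = 0.0238). Cox5b, which encodes a zinc-binding subunit on the matrix side, showed the largest fall of the ubiquitous subunits. It had 565, 656 and 1131 CPM in WT mice and 220.2, 251 and 136 CPM in sST2-KO mice, a log2 fold change of -1.95 (standard error 0.37, edgeR adjusted p = 0.0169). Cox6b1, whose product faces the intermembrane space near the cytochrome c site, had 562, 779 and 1167 CPM in WT mice and 252, 258 and 165 CPM in sST2-KO mice (log2 fold change -1.89, standard error 0.34, edgeR adjusted p = 0.0164). In both genes the highest WT value was that of replicate 3, and the lowest sST2-KO value was also that of replicate 3.

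The remaining ubiquitous subunits moved within the same range. Cox7b, Cox5a, Cox6c, Cox8a, Cox7a2 and Cox7c had log2 fold changes of -1.85, -1.78, -1.68, -1.65, -1.65 and -1.53, with edgeR adjusted p values of 0.0155 to 0.0282. Cox6a1 was the exception in the test, with a log2 fold change of -1.68 but an adjusted p of 0.0616. Its values were 713, 1307 and 1901 CPM in WT mice and 576, 474 and 171 CPM in sST2-KO mice, so the groups did not overlap but the spread within each was wide (standard error 0.53). All 10 ubiquitous subunits lay apart between the groups, and 9 were called. In all 10 the highest WT value was that of replicate 3, the lowest WT value that of replicate 1 and the lowest sST2-KO value that of replicate 3. The log2 fold changes of the 10 genes ran from -1.95 to -1.53, with standard errors of 0.28 to 0.53. Parts of some transcripts also lie elsewhere in the genome at 97% identity or more over at least 150 bases, as copies that cover 55.6% of the Cox5b transcript, 45.4% of Cox7b, 74.1% of Cox7c and 75.1% of Cox7a2l, so the counts of these genes are less certain.

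Among tissue isoforms, the forms known from brown fat, Cox7a1 and Cox8b, had larger fitted falls than any ubiquitous subunit. Cox7a1, on chromosome 7 from 29883569 to 29885503 (plus strand), had 173, 174 and 348 CPM in WT mice and 12.5, 35.0 and 6.81 CPM in sST2-KO mice. The highest sST2-KO value was well below the lowest WT value. The log2 fold change was -3.68 (standard error 0.64, edgeR adjusted p = 0.0154), which put the sST2-KO level at 7.79% of WT and made it the largest fall of the 27 genes. Cox8b, on chromosome 7 from 140477069 to 140480359 (minus strand), had 362, 432 and 801 CPM in WT mice and 81.3, 98.5 and 24.6 CPM in sST2-KO mice. Its log2 fold change was -2.96 (standard error 0.56, edgeR adjusted p = 0.0171), again without overlap. The adjusted p rose to 0.0622 for Cox7a1 and 0.0679 for Cox8b without WT replicate 3. With any library left out, the log2 fold change ranged from -4.59 to -3.27 for Cox7a1 and from -3.35 to -2.55 for Cox8b. Cox7a1 overlaps the unnamed gene model Gm53356 on the opposite strand, and Cox8b shares its locus with Psmd13, also on the opposite strand, which had 638 to 1301 counts per library. Whether counting used strand is not given in the sources used here.

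Cox6a2, the isoform of heart and skeletal muscle, had the only log2 fold change above 0 besides that of Cox18, and it was not called. This gene, on chromosome 7 from 127804607 to 127805559 (minus strand), had 123, 4 and 0 counts in WT mice and 542, 152 and 886 in sST2-KO mice. Scaled, these were 11.5, 0.377 and 0 CPM against 37.8, 18.0 and 87.5 CPM. The sST2-KO values all exceeded the WT values, but WT replicate 1 was far above the other WT libraries, and the log2 fold change of 3.56 (standard error 1.29) had an edgeR adjusted p of 0.0912. Without WT replicate 1 the fitted value was 7.74 with an adjusted p of 0.0258, so whether Cox6a2 is called depends on that library. Skeletal muscle markers moved with this gene. Their sum was 1609, 179 and 118 CPM in WT mice and 7832, 4355 and 17952 CPM in sST2-KO mice, with 17 of 18 marker genes apart between the groups, 5 called higher and 4, Ckm among them, at 0 in a WT library. The count of 5 was 17 without WT replicate 1, 1 without WT replicate 2, 0 without WT replicate 3 and 3 without sST2-KO replicate 2 or 3. Acta1, skeletal muscle actin, had 388, 5.65 and 0.740 CPM in WT mice and 1813, 1042 and 3906 CPM in sST2-KO mice. The order of the 6 libraries by Cox6a2 was the order by Acta1. Relative to the muscle sum, Cox6a2 was 0.713%, 0.210% and 0% in WT mice and 0.482%, 0.414% and 0.487% in sST2-KO mice. The part of muscle mRNA in the Cox6a2 result was not tested beyond these values. Itgad, which lies on the opposite strand of the same locus, had at most 17 counts in any library.

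**Figure D2:**
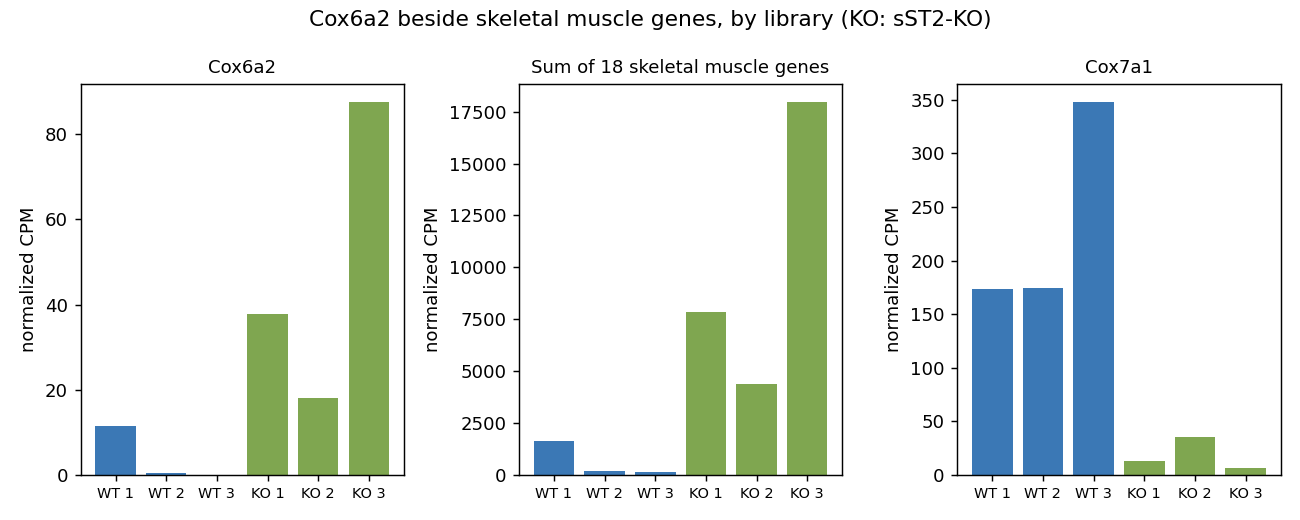
Levels in CPM, 1 bar per library, of Cox6a2 (left), of the sum of 18 skeletal muscle genes (middle) and of Cox7a1 (right). Cox6a2 and the muscle sum are highest in sST2-KO replicate 3, at 87.5 and 17952 CPM, where Cox7a1 is lowest, at 6.81 CPM.

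The low-level isoforms differed from each other. Cox4i2, the isoform of subunit 4 known from lung and from hypoxic cells, had 3.17, 5.37 and 5.55 CPM in WT mice and 3.21, 6.76 and 3.75 CPM in sST2-KO mice. The groups overlapped, with a log2 fold change of -0.046 (standard error 0.40, edgeR adjusted p = 0.947). Cox6b2, known from testis, had 37, 38 and 30 counts in WT mice and 20, 11 and 8 counts in sST2-KO mice, and fell with a log2 fold change of -1.604 (standard error 0.35, edgeR adjusted p = 0.0228). Its counts were few, and it was left out of the test when at least 10 counts were required in every library.

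**Figure D3:**
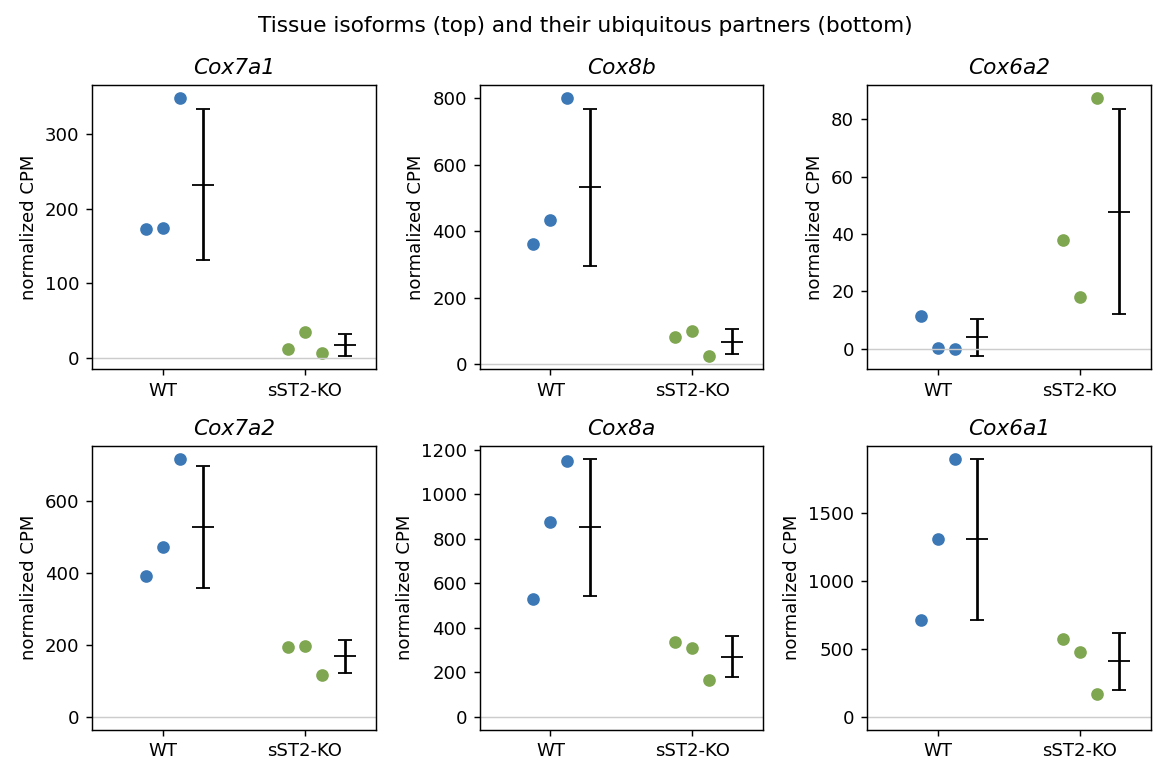
Levels in CPM of 3 tissue isoforms (top row) and the ubiquitous isoform of the same subunit (bottom row), with 1 point per library and, beside the points, the group mean with bars of 1 SD (n = 3). Cox7a1 lies at 173 to 348 CPM in WT mice and at most 35.0 CPM in sST2-KO mice, while Cox6a2 lies at most at 11.5 CPM in WT mice and at least at 18.0 CPM in sST2-KO mice.

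The ratio of a tissue isoform to its ubiquitous counterpart within each library does not depend on library scaling, and it was compared for 5 pairs. Cox7a1 against Cox7a2 had log2 count ratios of -1.18, -1.44 and -1.05 in WT mice and -3.94, -2.48 and -4.07 in sST2-KO mice. The ratio was lower in every sST2-KO library, with a mean difference of -2.28 on the log2 scale (WT -1.22 ± 0.20 and sST2-KO -3.50 ± 0.88, SD, n = 3, exact two-sided permutation p = 0.1). This is the smallest p that 3 mice against 3 can give, so no pair could reach 0.05. Shares of a pair were corrected for the length of the annotated canonical transcript of each gene. Cox7a1 made up 44.2% ± 3.41 of its pair in WT mice and 15.1% ± 8.39 in sST2-KO mice (SD, n = 3).

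Cox8b against Cox8a showed the same direction. The log2 ratios were -0.55, -1.02 and -0.52 in WT mice and -2.04, -1.66 and -2.76 in sST2-KO mice, a mean difference of -1.46 with no overlap (exact two-sided permutation p = 0.1, n = 3). The length-corrected share of Cox8b was 14.03% ± 2.22 in WT mice and 5.80% ± 1.98 in sST2-KO mice (SD, n = 3). This share rests on canonical transcripts of 2149 bases for Cox8b and 564 for Cox8a, which were not checked against the reads. Before this correction, WT mice had 3882, 4585 and 6494 counts of Cox8b and 5701, 9285 and 9319 of Cox8a. With any library left out, the differences stayed between -2.78 and -1.99 for the Cox7a pair and between -1.70 and -1.15 for the Cox8 pair.

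The other pairs did not share this direction. For Cox6a2 against Cox6a1 the log2 ratios were -5.95, -11.6 and -14.9 in WT mice and -3.93, -4.71 and -0.97 in sST2-KO mice, a mean difference of 7.62 (exact two-sided permutation p = 0.1, n = 3). That size depends on the 0 counts of WT replicate 3 and the 0.5 added to each count. In sST2-KO replicate 3, which had the highest muscle sum, Cox6a2 reached 30.1% of the pair per length, against 5.22% and 3.10% in the other sST2-KO libraries and at most 1.33% in WT libraries. Cox4i2 against Cox4i1 was higher in every sST2-KO library than in any WT library, with log2 ratios of -8.77, -8.56 and -9.01 in WT mice and -7.80, -6.66 and -6.52 in sST2-KO mice (difference 1.79, exact two-sided permutation p = 0.1, n = 3). Cox4i2 itself had nearly the same mean in both groups, 4.70 CPM in WT and 4.57 CPM in sST2-KO mice, while the fitted log2 fold change of Cox4i1 was -1.85. These levels, unlike the ratio, depend on library scaling, and the part of each gene in the change of the ratio was not tested. Cox6b2 against Cox6b1 overlapped between the groups, with a difference of 0.23 (exact two-sided permutation p = 0.6, n = 3). Over the 5 pairs the coding sequences were 64.2% to 71.0% identical, with at most 14 identical bases in a row, which is short beside reads of 150 bases.

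**Figure D4:**
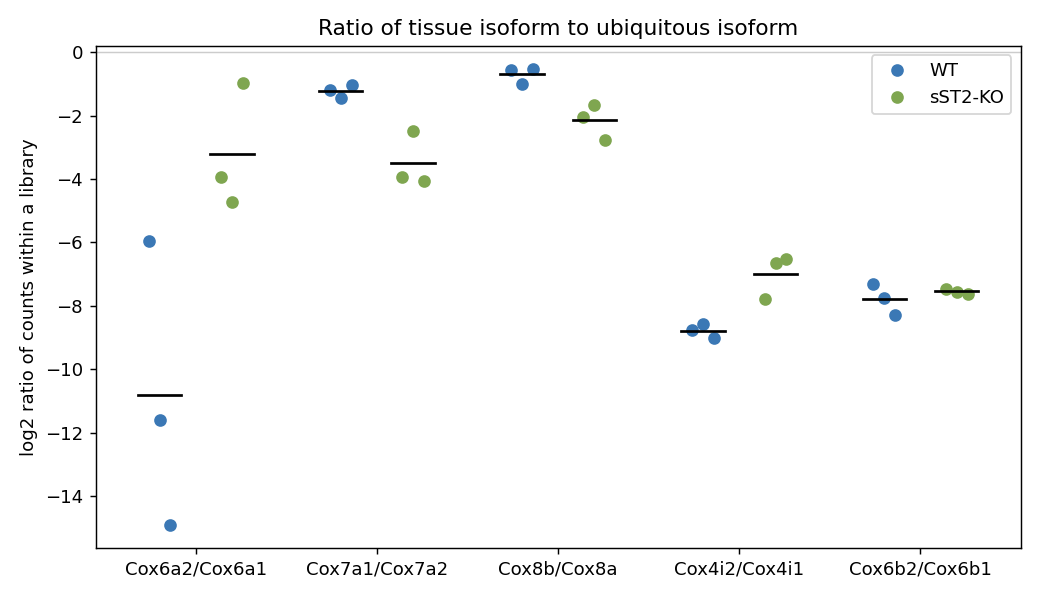
Log2 ratio of the counts of each tissue isoform to its ubiquitous counterpart, 1 point per library and a bar at the mean of each group of 3. In the Cox7a and Cox8 pairs all sST2-KO points lie below all WT points, in the Cox6a and Cox4i pairs they lie above, and in the Cox6b pair they overlap.

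The starts of the 3 main isoform pairs are shown because the genes of a pair encode the same subunit but had different fitted fold changes. Each line gives the 250 bases upstream of the outermost annotated start of the gene in GRCm39, 5′ to 3′ along the gene, and capitals mark a match to a motif searched on both strands.
Cox7a1 (chr7:29883319-29883568, plus strand): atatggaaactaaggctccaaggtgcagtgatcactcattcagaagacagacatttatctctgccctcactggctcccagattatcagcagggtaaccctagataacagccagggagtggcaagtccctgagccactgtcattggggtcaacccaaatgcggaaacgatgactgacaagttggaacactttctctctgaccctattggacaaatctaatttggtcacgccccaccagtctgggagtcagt
Cox7a2 (chr9:79667163-79667412, minus strand): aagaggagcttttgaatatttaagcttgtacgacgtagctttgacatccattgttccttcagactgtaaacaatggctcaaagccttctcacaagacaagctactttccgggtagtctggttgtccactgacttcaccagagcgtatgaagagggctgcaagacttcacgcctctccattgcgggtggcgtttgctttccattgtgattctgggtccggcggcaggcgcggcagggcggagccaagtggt
Cox8b (chr7:140480360-140480609, minus strand): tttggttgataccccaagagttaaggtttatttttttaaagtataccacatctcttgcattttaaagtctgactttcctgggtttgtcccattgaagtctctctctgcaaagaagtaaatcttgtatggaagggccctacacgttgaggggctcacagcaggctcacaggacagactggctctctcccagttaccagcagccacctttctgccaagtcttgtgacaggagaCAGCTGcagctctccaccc
Cox8a (chr19:7194998-7195247, minus strand): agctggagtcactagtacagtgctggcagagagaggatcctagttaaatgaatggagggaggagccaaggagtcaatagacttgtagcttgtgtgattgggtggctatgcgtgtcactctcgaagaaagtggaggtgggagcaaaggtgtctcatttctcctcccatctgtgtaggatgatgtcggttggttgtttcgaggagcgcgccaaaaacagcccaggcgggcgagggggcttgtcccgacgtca
Cox6a2 (chr7:127805560-127805809, minus strand): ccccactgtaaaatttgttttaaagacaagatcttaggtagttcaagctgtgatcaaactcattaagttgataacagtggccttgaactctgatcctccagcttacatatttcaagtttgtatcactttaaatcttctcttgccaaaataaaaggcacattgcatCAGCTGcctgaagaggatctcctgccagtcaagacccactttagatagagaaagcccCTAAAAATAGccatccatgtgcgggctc
Cox6a1 (chr5:115487051-115487300, minus strand): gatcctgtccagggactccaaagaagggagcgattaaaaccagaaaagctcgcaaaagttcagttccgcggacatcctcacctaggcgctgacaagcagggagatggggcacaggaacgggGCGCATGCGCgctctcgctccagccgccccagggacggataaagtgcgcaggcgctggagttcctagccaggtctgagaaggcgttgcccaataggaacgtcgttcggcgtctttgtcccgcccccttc
In the Cox8b line the capitals are the E-box CAGCTG, in the Cox6a2 line the same E-box and, closer to the start, a MEF2-type element, and in the Cox6a1 line a palindrome that holds the NRF1-type letters GCGCATGCG on both strands. No searched motif occurs in the printed bases of Cox7a1, Cox7a2 and Cox8a. The canonical start of Cox8a differs from the outermost start used here. Relative to that canonical start, counted as 0, Cox8a has GABP-type letters at -22 and 15 and YY1-type letters at 30. The 3 tissue isoforms printed have few CpG dinucleotides in these windows, 3 for Cox7a1 and 1 each for Cox8b and Cox6a2. Cox7a2, Cox8a and Cox6a1 have 12, 10 and 20. The other members do not divide this way. In the 250 bases before the canonical start, where Cox8a has 15, the tissue isoforms Cox4i2 and Cox6b2 have 12 and 11. There the ubiquitous subunits Cox7c, Cox7b and Cox6c have 2, 3 and 4, and the others have 8 to 38. The median over all promoters is 8.

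The motifs were counted from 250 bases before to 50 bases after the canonical start of 21757 protein-coding genes. The GABP-type letters CCGGAAG were found in 6 of the 28 genes (Cox6a1, Cox8a, Surf1, Cox10, Sco1 and Cox16) and in 10.26% of all promoters. The YY1-type letters AAGATGGC were in Cox8a and Cox10 and in 2.473% of all promoters, and the NRF1-type letters were in Cox6a1 and in 2.445%. The ERR-type letters TCAAGGTCA and the CRE letters TGACGTCA were in 0 of the 28 genes and in 0.4734% and 2.445% of all promoters. The E-box was in 6 of the 28 genes (Cox4i1, Cox6c, Cox8b, Cox15, Cox6a2 and Sco2) and in 14.85% of all promoters, and the MEF2-type element was in Cox6a2 and in 2.96%. The E-box and the MEF2-type element were added after the sequences had been seen. These matches describe letters in a window and not bound sites.

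Of the 12 assembly genes tested, 11 had a log2 fold change below 0 and 4 were called lower. Cox10, which encodes the farnesyltransferase that makes heme O on the way to heme A, had 34.0, 41.1 and 58.1 CPM in WT mice and 12.9, 18.9 and 15.0 CPM in sST2-KO mice. Its log2 fold change was -1.51 (standard error 0.26, edgeR adjusted p = 0.0152), with no overlap. Cox15, which encodes the next enzyme of the same path, had 28.9, 34.4 and 26.0 CPM in WT mice and 28.9, 29.4 and 26.4 CPM in sST2-KO mice. The values overlapped, with a log2 fold change of -0.078 (standard error 0.18, edgeR adjusted p = 0.782). The difference between the folds of these successive enzymes was not tested.

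In copper delivery, Cox17 passes copper to the proteins that load the core subunits. Cox17 had 122, 160 and 236 CPM in WT mice and 53.2, 63.4 and 47.7 CPM in sST2-KO mice, a log2 fold change of -1.66 (standard error 0.28, edgeR adjusted p = 0.0150) and the largest fall of the assembly genes. Cox19, a small intermembrane-space protein, fell by 1.30 on the log2 scale (edgeR adjusted p = 0.0238), and Cox11, which loads copper into the COX1 protein, fell by 1.10 (edgeR adjusted p = 0.0204). For Cox11 the sST2-KO values of 12.6, 11.0 and 13.0 CPM lay close together, below WT values of 24.4, 21.4 and 33.2 CPM. The copper chaperones of the COX2 protein were not called, with log2 fold changes of -0.91 for Sco2 (adjusted p = 0.122) and -0.39 for Sco1 (adjusted p = 0.343). Sco2 was low, at 2.02 to 6.04 CPM, and its groups did not overlap, whereas those of Sco1 did. Cox16 was filtered out, with 7, 7 and 11 counts in WT mice and 6, 1 and 5 counts in sST2-KO mice. Genes that overlap a member on the same strand can share its reads. These are Popdc2 for Cox17, Tymp for Sco2, Surf4 for Surf1 and Snord138 for Cox7c. Unnamed gene models overlap Cox7a2l on its strand, and S2bpcox16, Adam4 and unnamed gene models overlap Cox16.

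The other assembly genes were not called. Cox14 and Surf1 act early, on the COX1 protein, and had log2 fold changes of -0.60 (edgeR adjusted p = 0.0678) and -0.55 (edgeR adjusted p = 0.148). Cox20 and Cox18 act on the COX2 protein, and had log2 fold changes of -0.31 (edgeR adjusted p = 0.545) and 0.010 (edgeR adjusted p = 0.978). Cox18 was at 14.6, 17.0 and 15.7 CPM in WT mice and 17.4, 16.6 and 13.5 CPM in sST2-KO mice, so its groups overlapped. Cox7a2l is known for a role in joining complex IV to complex III in supercomplexes, which was not examined in these mice. It had 249.8, 272 and 343 CPM in WT mice and 195, 170.3 and 131 CPM in sST2-KO mice. The groups did not overlap, and its log2 fold change of -0.80 (standard error 0.24) had an edgeR adjusted p of 0.0510. Among 20 further assembly factors outside the name rule, 17 were tested and 11 were lower, 0 were higher and 6 were not called, with a median of -0.94. The count of 11 was 0 without WT replicate 3, 4 without WT replicate 2 or sST2-KO replicate 3 and 7 without sST2-KO replicate 1 or 2. The lowest were Cmc2, Coa7 and Higd2a, with log2 fold changes of -1.50, -1.46 and -1.25, and the highest were Coa6, Cmc1 and Coa4, with -0.23, -0.18 and -0.0084.

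None of the mRNAs of the mitochondrially encoded core was called. COX1 alone gave 7.76%, 6.26% and 7.19% of all counts in WT mice and 8.31%, 9.96% and 3.69% in sST2-KO mice, and the groups overlapped (log2 fold change -0.20, standard error 0.60, edgeR adjusted p = 0.838). COX2 and COX3 had log2 fold changes of -0.61 (edgeR adjusted p = 0.349) and -0.94 (edgeR adjusted p = 0.203), also with overlap. The libraries were selected for poly-A tails, and copies of COX2 and COX3 that are identical over the full length lie on chromosome 1, with a copy of COX1 at 97.6% identity on chromosome 2, so these counts are uncertain. Nuclear-encoded partners were lower. Ndufa4, which encodes a subunit now counted in complex IV, fell by 1.92 on the log2 scale (edgeR adjusted p = 0.0186), and Cycs, which encodes cytochrome c, fell by 1.78 (edgeR adjusted p = 0.0165). Ndufa4l2, a paralog of Ndufa4, had a log2 fold change of -0.27 (edgeR adjusted p = 0.497). Without WT replicate 3 the adjusted p was 0.0707 for Ndufa4 and 0.0679 for Cycs.

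The other complexes are given for comparison. All 36 complex I genes and all 9 complex III genes examined were called lower, with medians of -1.75 and -1.95, against -1.68 over the 15 nuclear complex IV subunits, of which 12 were called. In complex V, 11 of 15 genes were called lower and 1 higher, with a median of -1.50. Without WT replicate 3, 2 genes of complex I and 0 of complexes III and V were called lower, with medians of -1.47, -1.68 and -1.20, and without WT replicate 2 the counts were 25, 9 and 7. None of these differences between complexes was tested.

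**Figure D5:**
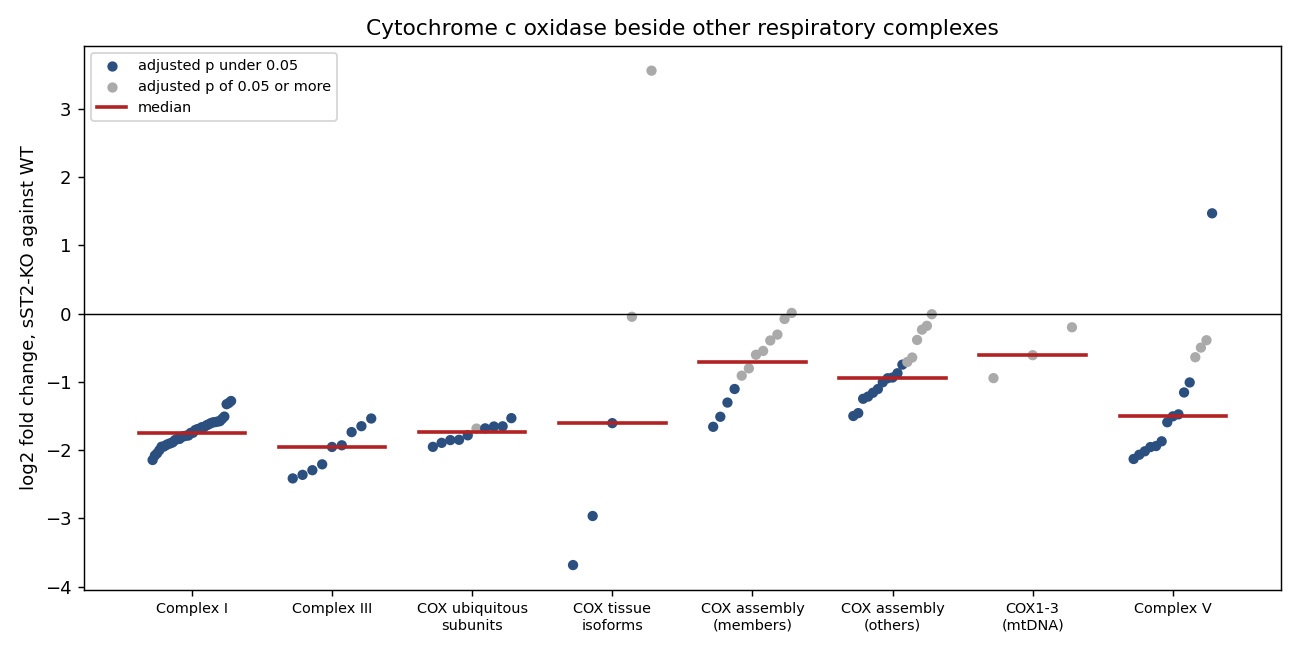
Log2 fold changes of genes of complexes I, III and V, of the complex IV subunits, isoforms and assembly genes, and of the mitochondrially encoded COX1 to COX3, 1 point per gene (dark for an adjusted p under 0.05) with a line at the median. The median is -1.73 for the ubiquitous complex IV subunits, between -1.95 and -1.50 for the other complexes and -0.70 for the complex IV assembly genes.

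The summed mRNAs of adipocytes were also lower, so the subunits were set against them within each library. The summed level of the 10 ubiquitous subunits was 6222, 8349 and 12731 CPM in WT mice and 3212, 3104 and 1692 CPM in sST2-KO mice. The sum of 9 mRNAs shared by all adipocytes was 23626, 25869 and 29521 CPM in WT mice and 14805, 13325 and 7101 CPM in sST2-KO mice, with 2 of the 9 genes called lower and 0 higher (0 lower without WT replicate 2 or 3 or sST2-KO replicate 1 or 3, and 1 without WT replicate 1). The subunit sum was thus 0.263, 0.323 and 0.431 of the adipocyte sum in WT mice and 0.217, 0.233 and 0.238 in sST2-KO mice. On the log2 scale the subunit sum differed by -1.76, the adipocyte sum by -1.23 and their ratio by -0.53, with the lowest WT ratio above the highest sST2-KO ratio. Against brown adipocyte markers the ratio lay on the other side. The subunit sum was 0.764, 0.835 and 0.842 of the sum of the 12 brown markers in WT mice and 5.87, 1.72 and 4.81 in sST2-KO mice. On the log2 scale the brown sum differed by -3.93, more than the subunit sum, and the ratio by 2.17 without overlap. Of the 12 brown markers, 10 had a log2 fold change below 0, with a median of -2.58 over the 12 and a highest value of 1.85. By edgeR 8 were called lower and 1 higher. The count of 8 was 1 without WT replicate 3, 2 without WT replicate 2, 8 without sST2-KO replicate 2 and 6 without any other library. Ucp1 made up 64.2% to 69.6% of the brown sum in WT mice and 29.3% to 57.8% in sST2-KO mice.

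Markers of other cells moved with the subunits, against them or neither way. The sums of endothelial, fibroblast and white adipocyte mRNAs overlapped between the groups. Their genes had median log2 fold changes of 0.064, -0.085 and -0.48. Of the endothelial genes 1 was called lower and 1 higher, as among the white adipocyte genes, and of the fibroblast genes 0 were called. Erythrocyte mRNAs were lower, at 485, 904 and 1586 CPM in WT mice and 108, 18.9 and 11.2 CPM in sST2-KO mice over 6 genes, with the highest WT and the lowest sST2-KO value in replicate 3, as for the subunits. All 5 erythrocyte genes tested were called lower. Their log2 fold changes had a median of -4.39, and without WT replicate 3 the count was 0 and the median -3.84. Macrophage mRNAs summed to 499 to 718 CPM in WT mice and 1066 to 5096 CPM in sST2-KO mice over 9 genes, of which 2 were called higher, and 0 without WT replicate 2 or 3. T cell mRNAs summed to 12.1 to 13.6 CPM and 104 to 130 CPM over 6 genes, of which 5 were called higher, and 4 without WT replicate 3. The part of these cells in the lower subunit mRNAs was not tested.

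The calls depended on single libraries, though the direction of the called genes did not. Without WT replicate 3, where each ubiquitous subunit was highest in WT, 0 of the members were called, with edgeR adjusted p values of 0.0610 to 0.104 for the 16 genes. In that fit 18 of the members, and 3797 of all genes, had an unadjusted p under 0.05. Without WT replicate 2, 10 members were called lower, as the adjusted p of Cox4i1, Cox8a, Cox6c, Cox7a2, Cox19 and Cox6b2 rose to between 0.0516 and 0.0768. Without sST2-KO replicate 2, 12 were called, as Cox8a, Cox6c, Cox11 and Cox6b2 reached 0.0502 to 0.0556. Without sST2-KO replicate 3, 12 were called, as Cox8a, Cox6c, Cox19 and Cox6b2 reached 0.0513 to 0.0577. All 16 called genes kept a negative log2 fold change with any library left out.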

How the data were processed

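BAT RNA was poly-A selected, prepared with the NEBNext Ultra kit and sequenced as paired-end reads of 150 bases. Per the labels, the submitters' processing notes name FastQC 0.12.1, HISAT2 2.2.1 and mm39. The authors counted reads per gene with htseq-count, and the deposited table holds these raw counts without normalization. The counter's version, annotation release and strand setting are not given in the sources used here.

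The table lists 35976 genes, of which 11377 had no counts, and 27 symbols that a spreadsheet had turned into dates stayed in the library sizes. Libraries were grouped by their labels, and 0 columns of sample values were left unused. Library totals were 10784814, 11597730 and 9841583 counts for WT (replicates 1, 2 and 3) and 12874809, 8159442 and 8917874 for sST2-KO. Counts were fitted in R 4.3.3 with edgeR 4.0.16 (filterByExpr, TMM, glmQLFit and glmQLFTest, group only), with Benjamini-Hochberg adjustment over 14542 genes. The methods of the study name DESeq2 (here 1.42.0, an alternative). The common biological coefficient of variation was 0.325. Standard errors are the log2 fold change over the root of the F statistic. Isoform ratios were log2 ratios of counts with 0.5 added, tested by exact permutation over 20 regroupings. The labels number the libraries without naming animals. The figure legend of the study gives 3 mice per group, so each library was read as a mouse of its own. The p-values measure the spread between these libraries, which may be partly technical. No library of a group was a copy of another (chi-square per degree of freedom at least 36.7).

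All 28 members were named, whatever their result. The members, lists and roles were chosen with earlier results of these data known. Coordinates, transcripts and promoters were taken from GENCODE vM39 on GRCm39, the build of the files, and all 28 symbols matched. Copies were searched with blastn 2.17.0. The steps were run on simulated data with the common dispersion and as many raised as lowered genes. That simulation lacked the differences in muscle, liver and mitochondrial mRNAs between these libraries, so it does not check the calls under them. Alternatives were DESeq2, RLE factors, total counts, other filters, robust estimation, a 2-fold minimum, removal of the 13 mitochondrial genes, another pseudocount, a replicate block and each library left out.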

Additional observations from a re-analysis of the deposited data

How the results depend on the processing

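In place of 16 members, 15 to 17 were called lower under robust estimation, RLE factors, no filter, total counts, a minimum of 10 counts per library (Cox6b2 not tested), a 2-fold minimum and removal of mitochondrial genes, and 19 under DESeq2, which added Cox14, Cox6a1 and Cox7a2l. With each library left out in turn, members called lower ranged from 0 to 16 and higher from 0 to 1, and over all genes lower calls ranged from 22 to 1189 and higher calls from 36 to 1502. Fewest calls were made when WT replicate 3 was dropped, with 3797 genes at an unadjusted p under 0.05. The cause was not tested. The median of the subunits ranged from -1.94 to -1.44 and that of the assembly genes from -0.85 to -0.57. Total counts moved the median of all genes to 0.29 and that of the assembly genes to -0.43.

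A replicate block, which leaves 2 residual degrees of freedom, gave 0 genes and 0 members called by edgeR, while 4623 genes and 19 members had an unadjusted p under 0.05. Same-numbered libraries did not pair, with correlations of deviations of -0.058, 0.21 and -0.31. For isoform ratios the block cannot move the mean difference of balanced groups, and its exact sign-flip p was 0.25 for the 4 pairs without overlap, the smallest that 3 pairs allow.

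The values that changed sign belonged to genes and a pair without a call. Total counts gave 0.18 for Cox15 and 0.22 for Cox4i2, and Cox18 was -0.0082 under DESeq2 and -0.0089 with RLE factors. With a library left out, Cox15 ranged from -0.17 to 0.036, Cox18 from -0.062 to 0.10, Cox4i2 from -0.45 to 0.16, Cox20 from -0.56 to 0.091 and the Cox6b2 to Cox6b1 difference from -0.012 to 0.46. Depth limits Cox16, Cox6b2 and Cox6a2 in WT mice.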

Other observations

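Of 8 transcriptional regulators known to act on genes of the respiratory chain, 3 were called lower in sST2-KO BAT and 0 higher. Ppargc1a, a coactivator of mitochondrial biogenesis, had 150, 252 and 171 CPM in WT mice and 20.4, 59.2 and 45.1 CPM in sST2-KO mice, and its fall was a log2 fold change of -2.20 (edgeR adjusted p = 0.0167). Esrra, the nuclear receptor ERR alpha, had 126, 114 and 172 CPM in WT mice and 36.5, 40.5 and 43.0 CPM in sST2-KO mice, and fell by 1.78 (edgeR adjusted p = 0.0100). Gabpa, the DNA-binding subunit of GABP, fell by 0.98 (edgeR adjusted p = 0.0186). The groups did not overlap in 5 of the 8 regulators, a pattern found in 41.5% of all genes tested. These were the 3 called genes, Ppargc1b and Nrf1. Nrf1 lay the other way, at 18.3, 19.0 and 20.6 CPM in WT mice and 21.4, 24.0 and 24.8 CPM in sST2-KO mice. The calls depended on single libraries. Without WT replicate 3 only Esrra was called (adjusted p = 0.0482), with 0.0653 for Ppargc1a and 0.0796 for Gabpa. Ppargc1a was also lost without WT replicate 2 (0.0502) and Gabpa without sST2-KO replicate 3 (0.0503), while Ppargc1b was called without sST2-KO replicate 2 (0.0190). Ppargc1b had a log2 fold change of -1.72 with an edgeR adjusted p of 0.0627. Nrf1, Gabpb1, Yy1 and Tfam had log2 fold changes of 0.28, 0.37, 0.25 and -0.37, with edgeR adjusted p values of 0.229 to 0.377.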
